A study of Mus musculus with 8 samples.

Results

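Micro_2 is a cluster of microglia in single-cell RNA-seq data of leukocytes from the mouse brain and its meninges after stroke. Its members were taken from the deposited cell annotation, as the barcodes whose cluster is Micro_2, and were joined to the count matrix of their library. They are 3832 of 32457 annotated cells (11.8%), and the matrices hold 36854 barcodes in all. Of the Micro_2 cells, 3686 (96.2%) came from brain parenchyma and 146 from the pia or dura.

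The cells came from adult male C57BL/6 mice. Stroke was produced by transient middle cerebral artery occlusion (MCAO), and control animals are called healthy in the design text, naive in the study's methods and sham-operated in its legends. An antibody to CD45, the pan-leukocyte surface protein, was injected intravenously before perfusion, so that cells inside blood vessels were stained. Tissues were then digested enzymatically, the brain for 20 min and the meninges for 45 min. The choroid plexus was taken out of the brain, and cells that carried CD45 but not the injected antibody were sorted and loaded on 10x Chromium 3′ kits, which mark transcripts with unique molecular identifiers (UMIs). The brain gave 4 libraries, of which 1 was from control mice, 2 were from 24 h after MCAO (replicates 1 and 2) and 1 was from 72 h after MCAO. Pia and dura each gave 1 control library and 1 library at 24 h. The study states that repeated experiments were pooled for each compartment, but the number of mice behind a library and its occlusion time are not given in the sources used here, so that the libraries are the replicates and p-values measure only the spread between these libraries. Values of the brain libraries are given below in 1 order, which is control, 24 h replicate 1, 24 h replicate 2 and 72 h.

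Microglia are the resident macrophages of the brain parenchyma and extend processes that survey the surrounding tissue. At rest they transcribe a set of homeostatic genes, among them the surface protein gene Tmem119, the fractalkine receptor gene Cx3cr1 and the purine receptor gene P2ry12. Immediate early genes such as Fos, Jun and Egr1 are transcribed within minutes of a stimulus, without new protein synthesis, and are followed by genes for phosphatases and inhibitors that end the signal. They can also be induced while tissue is dissociated, and a level of such RNA in sorted cells can therefore be set in the animal or at the bench.

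The 8 libraries fell into 2 kinds, and this division runs through every comparison between conditions. Control brain, 24 h replicate 1 and the 4 meningeal libraries list 32285 genes, whereas 24 h replicate 2 and the 72 h brain list 31053, and 30406 genes common to both lists were used. A pair of libraries of 1 kind shared 12 to 43 cell barcodes, a pair of different kinds 0 to 2. Of the Micro_2 barcodes of the brain, 43, 32, 0 and 2 occurred in a further library, and control brain and 24 h replicate 1 had 3 Micro_2 barcodes in common. The kit that the study's sample table gives each library divides the libraries in another way, so the kit could not be assigned and its part in the results was not tested.

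Depth followed the same division. The brain held 1349, 1116, 816 and 405 Micro_2 cells with a median of 1622, 1613, 873.5 and 906 UMIs per cell, which sum to 2188400, 1835485, 943006 and 559986 UMIs. The median share of UMIs from the mitochondrial genome was 0.662%, 0.600%, 3.19% and 2.50%. Levels are given as CPM, the UMIs of a gene after the UMIs summed over the Micro_2 cells of a library are scaled to a fixed total. They are compared between clusters of the same library, or between libraries for the same gene, and not between genes. A lower level in such a sum cannot be told apart from fewer cells with the transcript.

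In the brain the cluster carried the microglia transcripts that its name implies. Tmem119 (chr5:113793729-113800516 of GRCm38, minus strand, protein coding) stood at 3434, 3008, 1176 and 925 CPM, and Cx3cr1 (chr9:119901616-120069879, minus strand) at 1904, 1779, 2947 and 2468 CPM. The levels of Tmem119 thus divided by kind of library, with both members of each kind next to each other. Sall1, a transcription factor gene that marks microglia among macrophages, was at 39.8, 31.1, 183 and 180 CPM and divided the opposite way. For comparison, the lymphoid cells of the same libraries (68, 72, 437 and 670 cells with median depths of 1235, 1222, 1877 and 1180.5 UMIs) showed Tmem119 at 171, 70.8, 48.1 and 30.1 CPM. Whether this came from free RNA, doublets or cells assigned to the wrong cluster was not tested.

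Markers of other cells were low in the brain members but not absent. Of the 10 border macrophage markers, 5, 3, 6 and 4 were at 0 in the 4 brain libraries, and Lyve1 and Cd163 were at 0 in all 4. Their sum was 61.2, 104, 476 and 288 CPM, and most of it came from the scavenger receptor gene Stab1 (58.0, 89.3, 458 and 243 CPM), while the platelet factor gene Pf4 stayed between 0 and 3.57 CPM. Red blood cell markers were all at 0 in control brain and 24 h replicate 1, and summed to 814 and 627 CPM in 24 h replicate 2 and the 72 h brain, where Hbb-bs led with 462 and 318 CPM. The 8 neutrophil markers summed to 15.5, 31.1, 155 and 94.6 CPM, the 8 neuron markers to 3.66, 3.27, 66.8 and 35.7 CPM and the 8 monocyte markers to 12.8, 18.5, 19.1 and 104 CPM. Lymphoid markers summed to 48.9, 46.9, 33.9 and 37.5 CPM, mostly Cd79b. Astrocyte markers summed to 138, 130, 268 and 141 CPM and oligodendrocyte markers to 128, 90.4, 257 and 154 CPM. Endothelial markers gave 614, 592, 286 and 446 CPM, of which Bsg, a gene that many other cells also use, made up 597, 585, 220 and 391 CPM. The part of these transcripts in the results was not tested.

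The members outside the brain had few of the transcripts that the name implies. The control pia library is named as brain parenchyma in its title and as pia in its tissue label, and was taken as pia. In the 4 meningeal libraries, in the order control pia, 24 h pia, control dura and 24 h dura, there were 45, 61, 18 and 22 Micro_2 cells. Tmem119 stood at 195, 245, 0 and 47.0 CPM there and Cx3cr1 at 246, 419, 216 and 117 CPM. The border macrophage markers summed to 5693, 4191, 7446 and 5965 CPM, none of the 10 was at 0, and Pf4 alone reached 1426, 807, 2914 and 1738 CPM. These 146 cells are named by the cluster rule only, and the results below use the brain members.

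Micro_2 made up a similar share of the microglia in the brain. Among the cells of the 4 microglia clusters (Micro_1, Micro_2, Micro_3 and stress_Micro), it took 36.1% (95% exact interval 34.6 to 37.7), 37.2% (35.5 to 39.0), 40.8% (38.7 to 43.0) and 39.4% (36.4 to 42.5). The intervals cover counting error only, and no test was made, since each condition but 24 h had 1 library. The lowest share came from control and the highest from a library at 24 h, while the other library at 24 h lay nearer to control. Of Micro_1, Micro_2 and Micro_3 together, leaving out stress_Micro, the share was 36.3%, 37.4%, 53.7% and 49.8%, because stress_Micro held 14 and 11 cells in the first 2 libraries and 479 and 213 in the last 2. Of all annotated cells of the library, Micro_2 was 31.4%, 24.4%, 23.5% and 6.70%.

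Within each brain library, Micro_2 was set against Micro_1 (1864, 1402, 420 and 206 cells) and Micro_3 (506, 469, 283 and 203 cells). Median UMIs per cell were 1620, 1462.5, 795 and 1575.5 in Micro_1 and 1683, 1953, 1094 and 2420 in Micro_3. At 72 h the Micro_2 median was 906, so that clusters of 1 library differed in depth. Cells with at least 1000 UMIs made up 47.7%, 63.6% and 91.1% of Micro_2, Micro_1 and Micro_3 there. The clusters were drawn from these same counts, and the cells of a library share 1 suspension, so ratios between clusters are a description with no test. A ratio is the log2 of the CPM in Micro_2 over that in the other cluster, with 0.5 UMIs added to each sum. Ratios were taken for genes with a mean of at least 20 CPM in either cluster. Where both sums are 0 UMIs, the ratio comes only from the totals of the clusters. Over all 6280 genes measured against Micro_1, the median ratio was -0.04, -0.08, -0.12 and -0.07, 510 genes (8.12%) were higher in Micro_2 in all 4 libraries and 1191 (19%) lower in all 4. A gene that reaches 20 CPM only in the cluster where it is high has to differ, so counts and medians over the gene lists below are over genes with a mean of 20 CPM in both clusters. Of such genes 5764 were measured against Micro_1, with 455 (7.89%) higher and 1100 (19.1%) lower in all 4. Of the 5764, 2 (0.0347%) were at least 2-fold higher in all 4 and 0 (0%) at least 2-fold lower. Those 2 were Adamts1, which encodes a secreted metalloprotease, and the heat shock cochaperone gene Dnajb1. Of the 6280 genes with 20 CPM in either cluster, 3 (0.0478%) were at least 2-fold higher, the third being the noncoding transcript AI504432, which reached 20 CPM in Micro_2 only. Without control brain, 24 h replicate 1 or 24 h replicate 2 this count of 3 became 5, 5 and 7.

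Transcription factors of the AP-1, Egr and Nr4a families, the first layer of the immediate early response, were higher in Micro_2 than in Micro_1. Of 15 genes listed, 12 were measured, 9 of them were higher in Micro_2 in all 4 libraries and 0 were lower in all 4. The median ratio of the 12 was 0.74, 0.71, 0.76 and 0.86. Fos (chr12:85473890-85477273, plus strand, protein coding), the partner of Jun in the AP-1 dimer, stood at 13289, 10391, 5840 and 6988 CPM in Micro_2 and at 7589, 5625, 3439 and 3346 CPM in Micro_1. Its ratio was 0.81, 0.89, 0.76 and 1.06, and its level in both clusters was lower in the libraries of the shorter gene list. Junb (chr8:84974484-84978718, minus strand), another AP-1 subunit, had a mean ratio of 0.76 ± 0.11 (SD, n = 4 libraries). Its level in Micro_2 was 12291, 15378, 3970 and 3954 CPM, near that in the lymphoid cells (13407, 17276, 2901 and 2891 CPM), so that a Junb level alone does not set Micro_2 apart from other cells of its suspension. Fos in lymphoid cells was 1863, 1569, 1845 and 1768 CPM, below all 4 values in Micro_2.

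Further AP-1 members followed the same order. Jun was at 13580, 16181, 17602 and 14527 CPM in Micro_2 and at 9689, 12287, 11598 and 8298 CPM in Micro_1, with every Micro_2 value above every value in Micro_1. Atf3, a stress-induced factor of the ATF family, had a mean ratio of 0.93 ± 0.10 and Jund 0.64 ± 0.20. Fosb, the paralog of Fos, had ratios of 0.26, 0.26, 1.12 and 1.28, and was thus further apart in the libraries of the shorter gene list. The zinc finger factor genes Egr1 and Egr2 had mean ratios of 0.78 ± 0.24 and 0.85 ± 0.14. Nr4a1, an orphan nuclear receptor gene, had the largest mean ratio of the list, 1.40 ± 0.47, at low levels of 68.5, 55.0, 28.6 and 104 CPM against 23.3, 15.3, 9.18 and 61.3 CPM. Fosl2, Egr3 and Maff, with mean ratios of 0.27, 0.70 and 0.58, were not higher in all 4.

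The promoters of 2 of these genes are shown because both hold the letters TGACG, a core of the cAMP response element TGACGTCA that CREB and ATF factors are known to bind. The letters were searched on both strands, so that CGTCA stands for the reverse complement. Sequences are from RefSeq on GRCm38.p6, 5′ to 3′ on the gene's strand, with matches in capitals, and these 2 end at the base before the transcription start. Fos lies at chr12:85473640-85473889 (plus strand) with matches 129 and 66 bases before the start, and Nr4a1 at chr15:101266596-101266845 (plus strand) with 4 matches.
Fos: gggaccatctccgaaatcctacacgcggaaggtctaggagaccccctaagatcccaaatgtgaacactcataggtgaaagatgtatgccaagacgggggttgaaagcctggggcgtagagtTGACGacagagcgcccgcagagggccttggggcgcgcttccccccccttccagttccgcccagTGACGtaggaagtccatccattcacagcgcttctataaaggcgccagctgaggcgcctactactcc
Nr4a1: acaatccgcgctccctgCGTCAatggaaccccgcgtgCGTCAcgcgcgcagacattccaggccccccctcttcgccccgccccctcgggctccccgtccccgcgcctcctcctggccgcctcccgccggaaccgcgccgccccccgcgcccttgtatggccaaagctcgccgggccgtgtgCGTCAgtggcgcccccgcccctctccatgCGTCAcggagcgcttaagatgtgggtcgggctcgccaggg

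The motif was counted in windows from 250 bases before to 50 after each start. Of the 15 genes of the AP-1, Egr and Nr4a list, 12 had a window, and 9 of these (75%) held TGACG, against 19.8% of all 27025 genes with a window. The whole element TGACGTCA, which contains TGACG, was in 1 of the 12 and in 1.77% of all genes. Some genes have more than 1 window. Counted by window, TGACG was in 12 of 18 of the list (66.7%) and in 17.8% of all 32851. Base composition was not matched between the list and all genes. A match is a stretch of letters and not a bound site.

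Counted per cell, the 15 genes together made up a larger part of the transcriptome in Micro_2. Their median share of a cell's UMIs was 5.02%, 5.61%, 5.53% and 5.25% in Micro_2, against 3.21%, 3.80%, 3.55% and 2.69% in Micro_1 and 3.77%, 3.59%, 3.21% and 2.79% in Micro_3. In each brain library the median of Micro_2 lay above the upper quartile of Micro_1 (4.02%, 4.68%, 4.45% and 3.90%). The lower quartile of Micro_2 was 4.21%, 4.65%, 4.48% and 4.08%, close to those upper quartiles of Micro_1. The share varied less across the kinds of library than any of the single genes above, since Fos and Junb were lower and Fosb, Atf3 and Egr1 higher in the libraries of the shorter list.

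**Figure D1:**
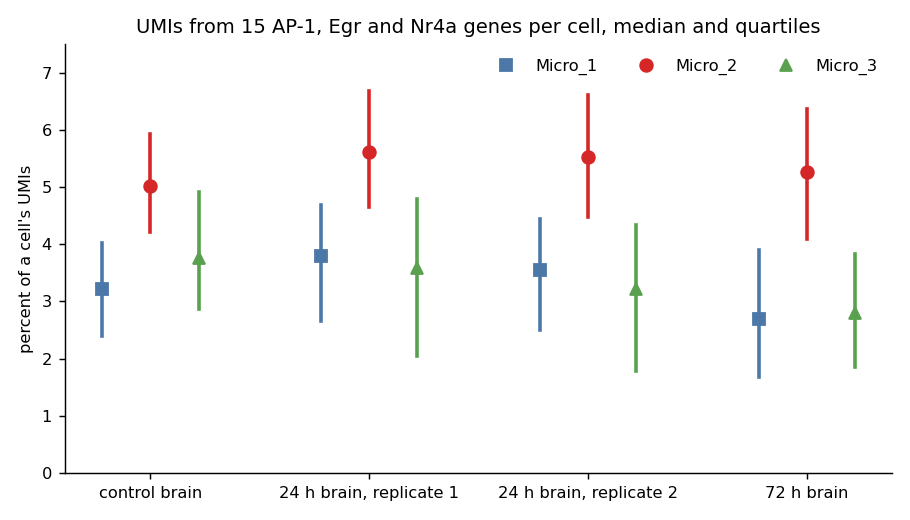
Share of a cell's UMIs that came from 15 AP-1, Egr and Nr4a genes (percent, vertical axis) by library and cluster, with the median as a point and the quartiles as a bar. The Micro_2 medians lie between 5.02% and 5.61% in the 4 brain libraries, above those of Micro_1 and Micro_3 of the same library.

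The genes that limit an immediate early response went with it. Of 18 feedback regulators measured, 14 were higher in Micro_2 than in Micro_1 in all 4 libraries and 0 lower, with a median ratio of 0.75, 0.59, 0.45 and 0.65. Dusp1, which encodes a phosphatase that inactivates MAP kinases, stood at 16258, 16207, 3681 and 3330 CPM in Micro_2 and at 10576, 9405, 2277 and 1704 CPM in Micro_1. In each library the Micro_2 value was the higher, and both clusters were lower in the libraries of the shorter list. Ier2, an immediate early gene without a known enzymatic role, had a mean ratio of 1.20 ± 0.25 and levels of 2235, 4157, 1780 and 1613 CPM. Nfkbiz, which encodes a nuclear inhibitor of the NF-kappaB family, had 0.99 ± 0.17. Zfp36, whose product destabilises cytokine mRNAs, had 0.69 ± 0.10, the cytokine signal inhibitor gene Socs3 0.63 ± 0.13, and the NF-kappaB inhibitor gene Nfkbia 0.59 ± 0.14. The 4 that were not higher throughout were Dusp2, Ier3, Gadd45b and Csrnp1, each below Micro_1 in at least 1 of the 2 libraries of the shorter list.

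TGACG was in the windows of 7 of 16 feedback genes (43.8%), against 19.8% of all genes. The Dusp1 promoter, at chr17:26508520-26508722 on the minus strand, is shown because it holds 1 whole TGACGTCA beside a further TGACG. The last 47 bases before the RefSeq start lie in an annotated exon and were left out.
Dusp1: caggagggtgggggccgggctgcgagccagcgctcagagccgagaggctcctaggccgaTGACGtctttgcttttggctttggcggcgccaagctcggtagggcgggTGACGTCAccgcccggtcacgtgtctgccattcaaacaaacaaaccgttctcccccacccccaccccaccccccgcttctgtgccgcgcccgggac

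Krüppel-like factors formed the third group. These are zinc finger proteins with different roles in macrophages, where Klf2 and Klf4 are known to hold back and Klf6 to promote inflammatory transcription. Of 8 measured, 4 were higher in Micro_2 than in Micro_1 in all 4 libraries and 0 lower, with a median ratio of 0.60, 0.59, 0.39 and 0.71. Klf2 (chr8:72319033-72321656, plus strand) stood at 11798, 10307, 6137 and 6359 CPM against 5304, 4820, 3740 and 3207 CPM, a mean ratio of 0.99 ± 0.19. Every Micro_2 value of Klf2 lay above every Micro_1 value, across both kinds of library. Klf6 had 0.87 ± 0.10 and Klf13 0.42 ± 0.24. Klf4 (chr4:55527143-55532466, minus strand) had ratios of 0.63, 0.42, 1.24 and 1.43, again larger in the libraries of the shorter list. Klf3, Klf7, Klf10 and Klf11 did not keep 1 sign.

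TGACG was in the windows of 5 of 9 Krüppel-like factor genes (55.6%), against 19.8% of all genes. In Klf2 it lay 241 bases before the start. Its promoter, at chr8:72318812-72319032 on the plus strand, is shown without the last 29 bases before the RefSeq start, which lie in an annotated exon.
Klf2: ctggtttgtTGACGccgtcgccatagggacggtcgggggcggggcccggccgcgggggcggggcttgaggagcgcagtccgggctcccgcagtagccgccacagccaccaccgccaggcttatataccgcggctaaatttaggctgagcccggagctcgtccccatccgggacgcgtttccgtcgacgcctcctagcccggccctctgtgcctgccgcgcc

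**Figure D2:**
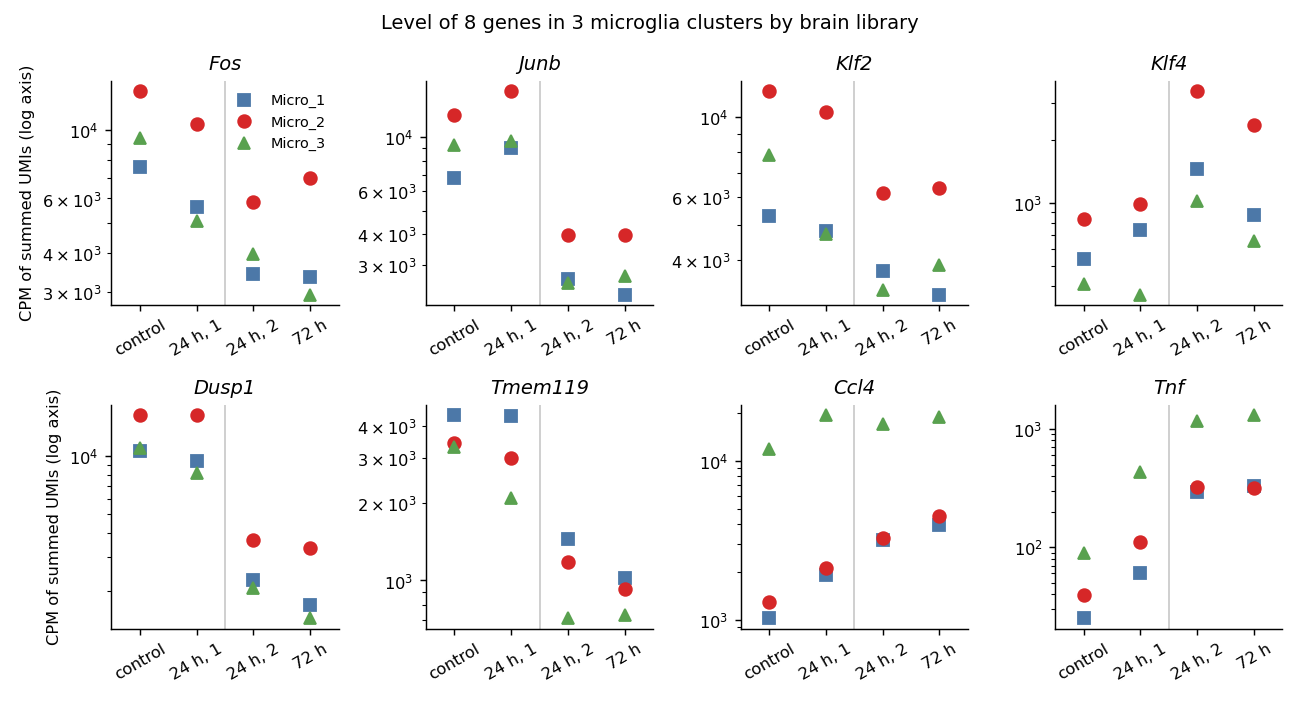
Level of 8 genes (CPM of summed UMIs, log axis) in the 4 brain libraries, with blue squares for Micro_1, red circles for Micro_2 and green triangles for Micro_3. A grey line separates the 2 kinds of library, and in each library Fos, Junb, Klf2, Klf4 and Dusp1 are highest in Micro_2 while Ccl4 and Tnf are highest in Micro_3.

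Genes known to respond to glucocorticoids were less even. Of 10 measured, 5 were higher in Micro_2 than in Micro_1 in all 4 libraries and 0 lower, and the median ratio was 0.68, 0.57, 0.12 and 0.22. Tsc22d3, which encodes the glucocorticoid-induced leucine zipper, had almost the same ratio everywhere, 0.67, 0.66, 0.66 and 0.68, at levels of 1540, 1285, 510 and 457 CPM. Glul, the glutamine synthetase gene, had 0.51 ± 0.10. Cdkn1a, the cell cycle inhibitor gene p21, had 1.53 and 1.66 in the first 2 libraries and 0.40 and 0.78 in the last 2. Fkbp5, a widely used glucocorticoid target, stayed between -0.35 and 0.15.

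Of 12 heat shock genes, 6 were higher in all 4 libraries and 0 lower, with medians of 0.17, 0.46, 0.21 and 0.21. Dnajb1 (chr8:83608193-83612653, plus strand) stood at 1557, 1769, 203 and 255 CPM against 742, 858, 87.2 and 125 CPM, a mean ratio of 1.08 ± 0.08. Hspa1a, which encodes the inducible HSP70, had ratios of 0.50, 1.01, 1.52 and 1.69. The mitochondrial chaperone genes Hspe1 and Hspd1 had mean ratios of -0.22 and 0.04, and Hsph1 had -0.25.

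Chemokine and cytokine genes were also somewhat higher in Micro_2 than in Micro_1, with 9 of 12 higher in all 4 libraries and 2 lower, at medians of 0.68, 0.44, 0.14 and 0.19. When each cell was thinned to 1000 UMIs, 3 rather than 9 were higher in all 4. Ccl2, which draws monocytes through CCR2, had 0.87, 1.06, 0.27 and 0.47. Ccl12, another CCR2 ligand gene, had 1.02 and 1.57 in the first 2 libraries but 0.05 and 0.16 in the last 2. Ccl4 had 0.19 ± 0.12 and Cxcl10 0.46 ± 0.09. The 2 genes that were lower throughout were Ccl9 (mean -0.41) and Cxcl16 (mean -0.26).

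On the lower side were the genes of resting microglia. Of 20 homeostatic genes, all measured, 13 were lower in Micro_2 than in Micro_1 in all 4 libraries and 1 was higher, with medians of -0.41, -0.50, -0.35 and -0.15. Tmem119 had ratios of -0.36, -0.53, -0.31 and -0.14. P2ry12 (chr3:59216272-59262871, minus strand), whose receptor steers microglial processes to sites of nucleotide release, had -0.64, -0.84, -0.49 and 0.00, so that the 72 h library did not share its difference. The lipid receptor gene Trem2 had -0.39 ± 0.04 and Gpr34, which encodes a receptor for lysophosphatidylserine, -0.49 ± 0.17. These differences were smaller than those of the immediate early genes, and no homeostatic gene reached 2-fold in all 4.

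Genes of lysosomes and complement lay on the same side. Of 15 lysosomal genes, 13 were lower in Micro_2 in all 4 libraries and 0 higher, with medians of -0.27, -0.33, -0.30 and -0.27, the most even of the lower lists. Grn, the progranulin gene, had -0.39 ± 0.05, with levels of 905, 1060, 1015 and 1646 CPM against 1178, 1438, 1265 and 2214 CPM. The 3 subunit genes of C1q, which starts the classical complement pathway, had mean ratios of -0.35 (C1qa), -0.32 (C1qb) and -0.33 (C1qc), with SDs of 0.04, 0.07 and 0.09. Of 7 complement genes 4 were lower and 1, the anaphylatoxin receptor gene C3ar1, was higher. Of 13 genes of disease-associated microglia, 7 were lower, among them Ctsd (-0.46 ± 0.12) and Tyrobp (-0.41 ± 0.11), and 1 was higher, the lipoprotein gene Apoe (0.38 ± 0.18). Of 13 transcripts of the mitochondrial genome, 10 were lower and 0 higher, with medians of -0.23, -0.27, -0.24 and -0.08. The mitochondrial share of UMIs counts the same transcripts, and was 0.662% in Micro_2 and 0.813% in Micro_1 of control brain.

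The remaining lists had few genes of constant sign against Micro_1. In all 4 libraries 3 of 11 glycolysis and hypoxia genes were lower and 0 higher, and their median was -0.17, 0.00, -0.16 and -0.94, so that the 72 h library lay apart. Of 4 interferon response genes 1 was lower and 0 higher, with medians of -0.16, -0.65, -0.21 and -0.73. Only 2 of 12 cell cycle genes were measured, and their median ran from 0.46 in control to -1.27 at 72 h. Of 9 TGF-beta pathway genes 2 were higher (Skil, Nrros) and 2 lower (Tgfb1, Ski), and of 5 purine signalling genes 1 was lower. None of 4 MHC class II genes kept 1 sign.

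**Figure D3:**
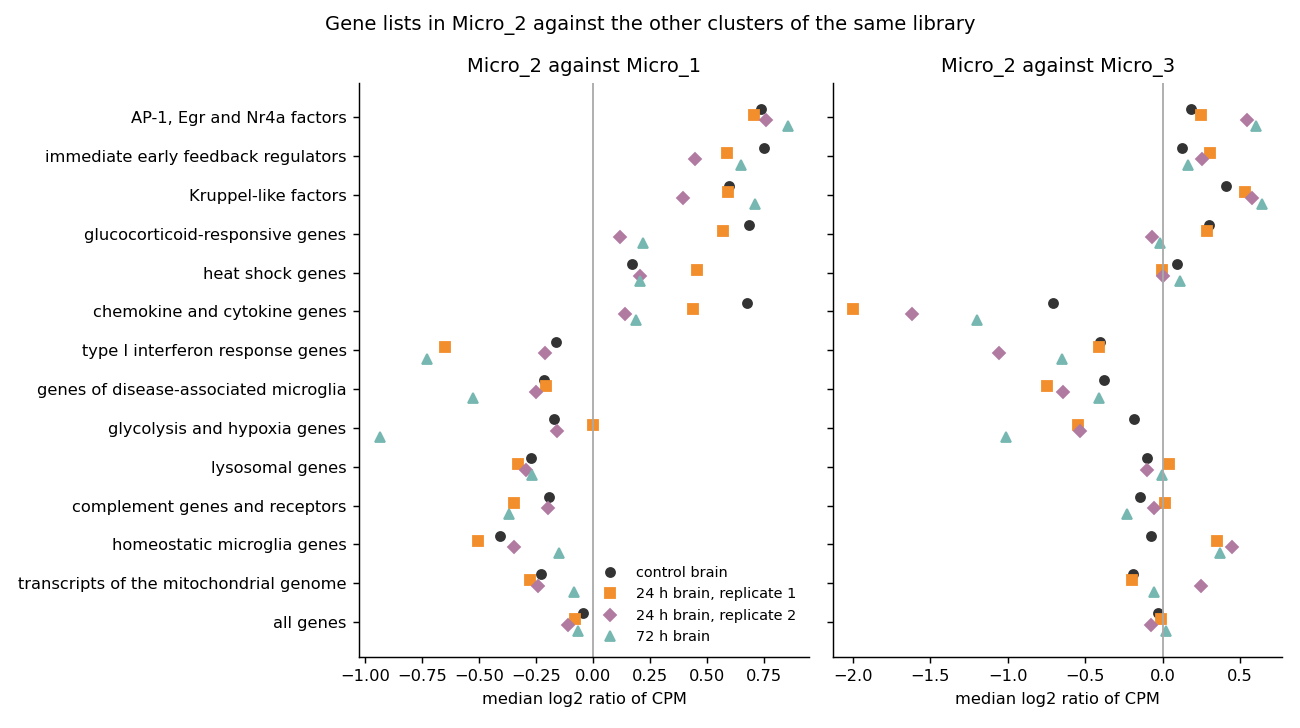
Median log2 ratio of CPM in Micro_2 to Micro_1 (left) and to Micro_3 (right) of the same library, for 13 gene lists and for all genes, each over genes with a mean of 20 CPM in both clusters, with 1 point per brain library. Against Micro_1 the AP-1, Egr and Nr4a list has medians of 0.71 to 0.86, and against Micro_3 the chemokine and cytokine list has the lowest (-2.00 to -0.70).

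The genes with the highest mean ratio to Micro_1 among those of 1 sign in all 4 libraries included 3 from the lists, Nr4a1, Ier2 and the chaperone gene Hspa1a. The highest was Adamts1 (chr16:85793827-85803113, minus strand), with 258, 374, 2334 and 1761 CPM in Micro_2 against 89.0, 138, 916 and 608 CPM in Micro_1 and ratios of 1.54, 1.44, 1.35 and 1.53. Its level differed between the kinds of library far more than between the clusters, while the ratio hardly moved. AI504432, which like Tcim and Peg10 reached 20 CPM in Micro_2 only, came next with a mean of 1.44, at 2.74, 2.72, 153 and 57.1 CPM, so that its first 2 ratios rest on few UMIs. The ferritin pseudogene Ftl1-ps1, whose reads may belong to its near-identical parent gene, had ratios of 0.70, 0.26 and 0.61 in the other libraries and 15 against 0 UMIs in 24 h replicate 2. The others were the CREB-family gene Creb5 (1.19), Tcim (1.18), the interferon-inducible gene Ifi204 (1.15) and the imprinted gene Peg10 (1.14). The 10 lowest were Ube2v1, Zbtb8os, Trappc2, Scd2, Upk1b, Phpt1, Casp6, Slc39a8, Ebi3 and Jagn1. Ube2v1 had ratios of -0.10 and -0.08 in control and 24 h replicate 1, and 0 against 0 and 0 against 3 UMIs in the other libraries. Its mean is thus no bound, and its ratio of -1.11 in 24 h replicate 2 comes only from the totals of the clusters. Trappc2, Phpt1 and Casp6 also had sums of 3 UMIs or fewer, and Zbtb8os, Trappc2, Phpt1 and Slc39a8 reached 20 CPM in Micro_1 only.

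Against Micro_3 the chemokine and cytokine genes had the lowest medians of the 13 gene lists plotted. Over 6302 genes measured the median ratio was -0.03, -0.01, -0.07 and 0.03, with 867 genes (13.8%) higher in Micro_2 in all 4 libraries and 1110 (17.6%) lower. Of the 5590 with 20 CPM in both clusters, 737 (13.2%) were higher and 969 (17.3%) lower. Of these 5590, 3 (0.0537%) were at least 2-fold higher in all 4 and 10 (0.179%) at least 2-fold lower. Of the 6302 with 20 CPM in either cluster, 5 (0.0793%) were at least 2-fold higher and 22 (0.349%) at least 2-fold lower. Of these 22, 6 had a library in which both sums were at most 3 UMIs. Among the 6, Il12b, Ch25h, Acod1 and Ifitm1 had 0 UMIs in both clusters of control brain. Their ratio of -1.34 there is set by the totals of the clusters, so these genes were not shown to be lower in control. Without control brain, 76 rather than 27 genes passed 2-fold in every library left.

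Of 12 chemokine and cytokine genes at 20 CPM in both clusters, 11 were lower in Micro_2 than in Micro_3 in all 4 libraries and 0 higher, with medians of -0.70, -2.00, -1.62 and -1.20. A further 2, Ccl7 and Il1b, reached 20 CPM in Micro_3 only. Ccl4 (chr11:83662584-83664683, plus strand), a chemokine gene, stood at 1297, 2111, 3284 and 4522 CPM in Micro_2 and at 11900, 19490, 17172 and 18999 CPM in Micro_3. Every Micro_3 value was above every Micro_2 value, and the ratio was -3.20, -3.21, -2.39 and -2.07. Its neighbour Ccl3 (chr11:83647844-83649355, minus strand) stood at 1304, 2739, 1958 and 2395 CPM against 6251, 11156, 6762 and 6331 CPM. Tnf, at 39.3, 110, 322 and 320 CPM against 89.3, 430, 1164 and 1316 CPM, had a mean ratio of -1.76 ± 0.39. In that case the clusters overlap when libraries are mixed, and the difference shows within libraries only. Ccl7 and Cxcl10, ligands of CCR2 and CXCR3, had means of -2.66 and -2.20 and were at least 2-fold lower in all 4, as were Ccl3, Ccl4 and Tnf. Cxcl2, a neutrophil chemokine gene, was the one without a constant sign, with 0.40 in control and -3.21, -1.95 and -3.06 after MCAO.

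Several interferon response genes and genes of disease-associated microglia were lower as well. Of 13 interferon response genes 4 were at 20 CPM in both clusters, and 3 of these were lower in all 4 libraries and 0 higher. Ifitm3, which encodes an antiviral membrane protein, had a mean ratio of -1.33 ± 0.63, Bst2 had -0.70 ± 0.36, and Ifi27l2a had -0.04, -0.20, -1.96 and -0.98. Another 4 (Ifit2, Isg15, Irf7, Rtp4) reached 20 CPM in Micro_3 only and are left out of that count. Of 12 genes of disease-associated microglia, 8 were lower and 0 higher, with medians of -0.38, -0.74, -0.64 and -0.41. Lpl, the lipoprotein lipase gene, had -1.17, -4.47, -2.15 and -1.01, and was at 7.77, 29.4, 122 and 73.2 CPM in Micro_2 against 17.4, 657, 541 and 148 CPM. The tetraspanin gene Cd63 had -0.92 ± 0.37. Of 11 glycolysis and hypoxia genes, 7 were lower and 0 higher, with medians of -0.18, -0.54, -0.53 and -1.01, among them Pgk1 (-1.27 ± 0.71), Pkm (-1.01 ± 0.51) and the oxygen-regulated factor gene Hif1a (-0.37 ± 0.08). The complement receptor gene C5ar1 had -0.95 ± 0.21.

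The transcription factor genes kept Micro_2 above Micro_3 too, by less than above Micro_1 for Atf3, Egr1 and Nr4a1. Of 12 AP-1, Egr and Nr4a genes 7 were higher in all 4 libraries and 1 lower, Maff, with medians of 0.18, 0.25, 0.55 and 0.61. Fos had 0.50, 1.03, 0.56 and 1.25 and Fosb 0.90, 1.49, 2.30 and 2.11. Atf3, with 0.10 ± 0.10, was nearly level, and Nr4a1, with 0.18, 0.20, -0.51 and 0.57, had no constant sign. Krüppel-like factors were the most regular, with 6 of 8 higher and 0 lower and medians of 0.41, 0.53, 0.58 and 0.64. Klf4 stood at 833, 988, 3424 and 2359 CPM against 409, 363, 1018 and 658 CPM, and its ratio of 1.02, 1.44, 1.75 and 1.84 made it 1 of the 5 genes that were at least 2-fold higher throughout. Klf2 had 0.83 ± 0.23, Dusp1 0.89 ± 0.27 and Tsc22d3 1.18 ± 0.40.

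Homeostatic genes did not part Micro_2 from Micro_3 in control brain, where their median ratio was -0.08, but lay higher in Micro_2 in the 3 libraries after MCAO, with medians of 0.35, 0.45 and 0.37. Of 20, 5 were higher in all 4 libraries, among them Tmem119, Cx3cr1, Selplg and Mef2c, and 1 was lower, the Fc receptor-like gene Fcrls, with -0.17, -0.52, -0.54 and -0.62. Tmem119 had 0.05, 0.52, 0.72 and 0.34. Whether any of these genes changed differently in the 2 clusters is tested below.

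Of 18 feedback regulators 9 were higher than in Micro_3 and 3 lower (Ier3, Gadd45b, Csrnp1). Of 10 glucocorticoid-responsive genes 4 were higher and 3 lower (Sgk1, Mt1, Mt2), and of 12 heat shock genes 3 were higher and 2 lower (Hspd1, Hspb1). Of 9 TGF-beta genes 4 were higher, among them the inhibitor gene Smad7, and 1 lower, Tgfb1. Lysosomal genes, with 1 of 15 higher and 5 lower, and mitochondrial transcripts, with 0 of 13 higher and 1 lower, lay near 0.

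Besides Klf4, the genes at least 2-fold higher than in Micro_3 throughout were Tmx4 (mean 1.92) and Rgs3 (1.36), and 2 that reached 20 CPM in Micro_2 only and so had to differ, Dusp18 (2.11) and Rhobtb1 (1.45). Tmx4, which encodes a thioredoxin-related membrane protein of the endoplasmic reticulum, stood at 740, 809, 3755 and 1439 CPM against 349, 247, 592 and 302 CPM. Rgs3, whose product shortens signalling through G proteins, was at 223, 175, 145 and 141 CPM against 88.1, 64.6, 46.6 and 66.0 CPM, with no overlap between the clusters in any pair of libraries. Others among the 10 highest of 1 sign were Slc13a3 (1.78, with 20 CPM in Micro_2 only and sums of 2 to 9 UMIs in Micro_3), Fosb (1.70), Gm26802 (1.45) and Gm26532 (1.41). Zfp869 was in this set with ratios of 0.16 and 0.61 in control and 24 h replicate 1 and with 6 against 0 and 2 against 0 UMIs in the other libraries, so that its mean is no bound. The 10 at least 2-fold lower with 20 CPM in both clusters were the chemokine and cytokine genes Ccl3, Ccl4, Cxcl10 and Tnf, the scavenger receptor gene Msr1, the inhibitory receptor gene Lilrb4a (-1.50, -3.74, -2.94 and -1.18), Lpl, Phlda1, Pilra and Ckap2l. The other 12 reached 20 CPM in Micro_3 only, among them the endothelin gene Edn1, Lgals1, Fam20c and Ehd1. Il12b, Ch25h, Acod1, Cd69 and Ifitm1 had the lowest fitted ratios along with Ccl4, Mmp12, Ccl7, Edn1 and Fam20c, but all of these other than Ccl4 reached 20 CPM in Micro_3 only, and all other than Ccl4 and Ccl7 had at least 1 sum of 3 UMIs or fewer, so that such ratios are no bound.

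The second question was how Micro_2 itself differed between control and MCAO brain. UMIs were summed over its cells in each library and tested with edgeR's quasi-likelihood test, with Benjamini-Hochberg adjustment over 9577 genes and a call at an adjusted p under 0.05 and at least 2-fold. For MCAO against control 0 genes (0%) were called, with 155 at an unadjusted p under 0.05, and DESeq2 called 2 (Spp1 and AY036118). For 24 h against control 0 (0%) were called, with 91 at an unadjusted p under 0.05 and 1 by DESeq2 (Spp1). For 72 h against 24 h 0 (0%) were called, with 60 at an unadjusted p under 0.05 and 1 by DESeq2 (Ifi27l2a). Without 24 h replicate 1 the count for MCAO was 3662, and MCAO and kind of library then coincide. The lone control library was assumed to vary like the MCAO libraries, and in the fit with 3 groups the spread rests on the 2 libraries at 24 h. Those 2 were of different kinds. A fit with a term for the kind of library put 3895 of the 9577 genes (40.7%) past the threshold for that term, 1964 higher and 1931 lower in the libraries of the shorter gene list. That term sets 24 h replicate 2 and the 72 h brain against 24 h replicate 1, so it also holds time after MCAO. Its spread comes from 24 h replicate 2 and the 72 h brain alone. The spread in the test of MCAO against control includes the difference between kinds. The counts of these fits therefore do not rank the size of the effects.

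With that term in the fit, an alternative chosen after seeing the data, 9 of 9577 genes (0.094%) were called for MCAO, 7 higher and 2 lower. In this fit the MCAO estimate sets 24 h replicate 1 against control, the spread comes from the other 2 libraries, and the adjusted p-values below stand on that narrow base. Spp1 (chr5:104435118-104441050, plus strand), which encodes the secreted matrix protein osteopontin, stood at 4.11, 359, 300 and 129 CPM, so that all 3 MCAO libraries were far above control. Its log2 change was 6.34 (SE 0.72, adjusted p = 2.02e-14 by edgeR with Benjamini-Hochberg adjustment), and 5.75 (SE 1.29, adjusted p = 0.941) without the term. Lymphoid cells of the same libraries held Spp1 at 434, 547, 171 and 128 CPM, and thus more than Micro_2 in control brain. Lgals3, the galectin-3 gene, rose by 2.94 (SE 0.60, adjusted p = 0.0012) and was at 5.03, 41.4, 28.6 and 64.3 CPM in Micro_2 and at 274, 304, 92.8 and 145 CPM in lymphoid cells.

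The other genes that rose with the term were Lilrb4a, Lilr4b, Cd300lf, Msr1 and Hcar2. Lilrb4a, an inhibitory receptor gene, was at 3.66, 69.2, 19.1 and 28.6 CPM (log2 change 4.13, SE 0.62, adjusted p = 6.43e-08 by edgeR) and its near copy Lilr4b at 0.457, 24.5, 20.1 and 25.0 CPM (5.43, SE 0.98, adjusted p = 7.74e-05). Reads of these 2 paralogs may be divided between them uncertainly. In lymphoid cells Lilrb4a was at 149, 182, 25.7 and 47.9 CPM and Lilr4b at 57.15, 132, 58.1 and 64.6 CPM. Both were thus above their Micro_2 level in each library. Cd300lf, another inhibitory receptor gene, was at 3.66, 43.0, 31.8 and 26.8 CPM, with 0, 0, 7.83 and 16.7 CPM in lymphoid cells. Msr1 was at 2.28, 36.5, 36.1 and 5.36 CPM and Hcar2, a receptor gene for hydroxybutyrate and niacin, at 1.83, 27.2, 22.3 and 12.5 CPM. In each of these genes all 3 MCAO libraries stood above control. The 2 genes that fell with the term, Ttr (log2 change -5.19) and Enpp2 (-3.93), both known as abundant transcripts of the choroid plexus, did not show that order. Ttr was at 285, 8.17, 488 and 355 CPM and at 240, 0, 299 and 513 CPM in lymphoid cells, so that 24 h replicate 1 alone was low, in both cell types.

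**Figure D4:**
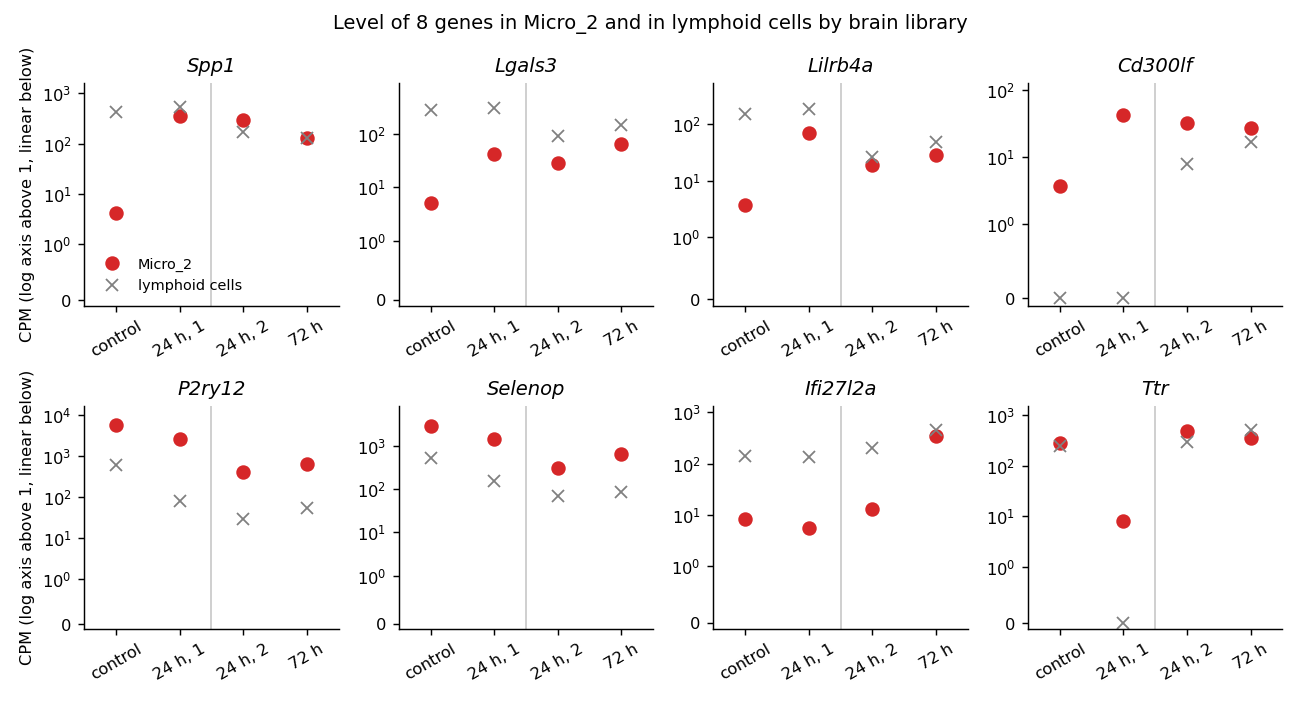
Level of 8 genes (CPM, axis logarithmic above 1 and linear below) in the Micro_2 sums (red) and in lymphoid cells (grey crosses) of the 4 brain libraries, with a grey line between the 2 kinds of library. Spp1 is at 4.11 CPM in control Micro_2 and at 129 to 359 CPM after MCAO, while Ttr in Micro_2 and in lymphoid cells follows the same library pattern.

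By gene list, the tests without the term called 0 genes in every list for MCAO against control, and with the term 2 of the 16 genes of disease-associated microglia tested, Spp1 and Lgals3. The median log2 change of the 20 homeostatic genes was -0.69, or -0.47 with the term. P2ry12 was at 5643, 2518, 400 and 634 CPM, a log2 change of -2.39 (SE 1.09, adjusted p = 0.941 by edgeR) and -1.24 with the term. All 3 MCAO libraries were below control in P2ry12, but the same order was seen in lymphoid cells (583, 81.0, 29.1 and 52.3 CPM). The selenium transporter gene Selenop was at 2840, 1467, 315 and 661 CPM, Serinc3 at 2626, 971, 943 and 950 CPM, and Gpr34 at 1655, 835, 429 and 595 CPM, none of them past the threshold. Selenop and Gpr34 had the same order in lymphoid cells, at 526, 152, 68.2 and 86.9 CPM and at 206, 50.6, 28.0 and 34.5 CPM. Serinc3 in those cells was also below control in each MCAO library (686, 344, 540 and 275 CPM). The cytokine list, with all 15 genes tested, had a median change of 0.56, or 0.62 with the term.

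Pairs of libraries of the same kind allow a description that the kind does not enter, with 1 library on each side and no test. In 24 h replicate 1 against control, 155 of 5637 genes (2.75%) were at least 2-fold higher and 39 (0.692%) at least 2-fold lower, with a median log2 ratio over all genes of 0.08. These genes had 20 CPM in at least 1 of the libraries. With 20 CPM required in both, as for the lists below, 46 of 4879 (0.943%) were higher and 13 (0.266%) lower. Of 11 chemokine and cytokine genes, 4 were at least 2-fold higher (Tnf 1.48, Cxcl2 1.36, Ccl12 1.20, Ccl3 1.07) and 0 lower, at a median of 0.75. Of 9 genes of disease-associated microglia 2 were at least 2-fold higher, Apoe (1.28) and Cd63 (1.07), and the median was -0.06. Spp1 (6.37), Lgals3 (2.99) and Lpl (1.89) reached 20 CPM at 24 h only. C5ar1 had 1.48. Of 20 homeostatic genes 1 was at least 2-fold lower, P2ry12 with -1.16, and the median was -0.39. Of 10 AP-1, Egr and Nr4a genes 0 passed 2-fold either way, at a median of -0.21.

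In 72 h against 24 h replicate 2, 338 of 6580 genes (5.14%) were at least 2-fold higher and 500 (7.6%) at least 2-fold lower, with a median of -0.15. With 20 CPM in both libraries, 164 of 5269 (3.11%) were higher and 162 (3.07%) lower. Few interferon response genes met this, among them Ifitm3 with 2.08 and Bst2 with 1.03. Another 5 (Ifit2, Ifit3, Isg15, Rtp4, Ifi27l2a) reached 20 CPM at 72 h only and so had to be higher there. Ifit2 had 8 UMIs at 24 h and 31 at 72 h. Ifi27l2a (chr12:103442167-103443680, minus strand), an interferon-inducible gene, was at 8.23, 5.45, 12.7 and 338 CPM in Micro_2, so that only the 72 h library was high. Lymphoid cells held it at 137, 132, 198 and 451 CPM, also highest at 72 h. Its log2 change from 24 h to 72 h was 5.28 (SE 1.49) in the edgeR fit and did not pass the threshold there. Of 12 genes of disease-associated microglia at 20 CPM in both libraries 5 were at least 2-fold higher and 1, Spp1, lower (median 0.70). Of 3 MHC class II genes 1, Cd74, was higher (1.14), and of 11 heat shock genes 3 were lower (median -0.47). Of 12 AP-1, Egr and Nr4a genes 2 were higher, Nr4a1 with 1.84 and Egr3 with 2.23, and the median was -0.06. The monocyte markers also summed to more at 72 h in this pair, 104 against 19.1 CPM, and their part in these lists was not tested.

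The libraries at 24 h are of different kinds and may also differ in mice and occlusion time, which cannot be told apart here. In 24 h replicate 2 against replicate 1, 2424 of 7089 genes (34.2%) were at least 2-fold higher and 1548 (21.8%) at least 2-fold lower. With 20 CPM in both libraries these were 917 of 4420 (20.7%) and 882 (20%). All 10 transcripts of the mitochondrial genome that met this were at least 2-fold higher, with a median of 2.55.

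The last question was whether MCAO changed a gene differently in Micro_2 than in its neighbour clusters. Each library was a block in the edgeR fit, so that differences between libraries that act on both clusters alike drop out of the estimate. The assignment of cells to clusters rests on the same counts and can itself enter such a difference, which was not tested. Against Micro_1, 1 of 10140 genes (0.00986%) was called, with 225 at an unadjusted p under 0.05. It was Stmn1, a microtubule regulator gene of dividing cells, at 54.4, 32.1, 7.42 and 48.2 CPM in Micro_2 and at 41.4, 53.1, 16.1 and 220 CPM in Micro_1. The change in Micro_2 was lower by a log2 of 1.66 (SE 0.355) than in Micro_1, and the adjusted p was 0.0307 by edgeR. The call was lost with DESeq2, without a filter on low counts and with the term for kind of library. It was also lost without 24 h replicate 2 and without the 72 h library.

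Against Micro_3, 14 of 9330 genes (0.15%) were called, 11 with a lower change in Micro_2 and 3 with a higher one, and 657 had an unadjusted p under 0.05. DESeq2 called 1, Cxcl2. Without 24 h replicate 1, without 24 h replicate 2 and without the 72 h library 37, 9 and 23 genes were called, which held 8, 9 and 14 of the 14, and 4 were called in each case. The 14 differences had the same sign in 3 of 3 MCAO libraries, which chose these genes and share 1 control library. Of the 15 genes of the chemokine and cytokine list, all tested, 2 were called (Cxcl2 and Ccl9), both with a lower change. Cxcl2 (chr5:90903871-90905938, plus strand) was at 21.9, 56.7, 110 and 44.6 CPM in Micro_2 and at 16.2, 526, 428 and 379 CPM in Micro_3, about level in control and apart in every MCAO library. The difference of the log2 changes was -3.20 (SE 0.477, adjusted p = 1.94e-07 by edgeR with Benjamini-Hochberg adjustment). Ccl9 was at 143, 87.2, 41.4 and 66.1 CPM against 189, 546, 116 and 178 CPM, a difference of -1.71 (SE 0.313). Ccl5, a chemokine gene outside that list, was at 8.68, 12.5, 12.7 and 16.1 CPM against 9.28, 303, 22.3 and 31.2 CPM, a difference of -3.30 (SE 0.661), carried mainly by 24 h replicate 1. Lymphoid cells held Ccl5 at 8698, 9301, 3789 and 3858 CPM, and the part of RNA from such cells in this difference was not tested.

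The promoter of Cxcl2, at chr5:90903649-90903870 on the plus strand of GRCm38.p6, is shown because it holds 2 copies of an NF-kappaB site (3 G, 2 bases of any kind, 3 T and 2 C), 97 and 78 bases before the start. The last 28 bases before the RefSeq start lie in an annotated exon and were left out. These letters, searched on both strands, were in 4 of 11 chemokine and cytokine genes (36.4%), 3 of 16 feedback genes (18.8%), 0 of the AP-1, Egr and Nr4a, Krüppel-like factor and homeostatic genes and 1.65% of all genes. TGACG was in 2 of 11 chemokine and cytokine genes (18.2%) and in 2 of 14 homeostatic genes (14.3%). The AP-1 site TGANTCA was in 4 of 11 chemokine and cytokine genes, 2 of 16 feedback genes, 1 of 9 Krüppel-like factor genes, 2 of 14 homeostatic genes, 0 of 12 AP-1, Egr and Nr4a genes and 7.82% of all genes.
Cxcl2: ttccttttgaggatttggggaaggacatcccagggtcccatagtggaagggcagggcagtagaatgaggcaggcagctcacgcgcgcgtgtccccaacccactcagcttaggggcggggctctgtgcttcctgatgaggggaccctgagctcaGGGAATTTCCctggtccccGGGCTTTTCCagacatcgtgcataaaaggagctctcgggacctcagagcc

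There were 8 other genes with a lower change. Dab2, an endocytic adaptor gene, was at 12.8, 38.1, 54.1 and 30.4 CPM in Micro_2 against 6.96, 191, 259 and 88.0 CPM in Micro_3, a difference of -3.07 (SE 0.619). Cd72, a C-type lectin gene, was at 10.5, 38.1, 20.1 and 60.7 CPM against 11.6, 420, 95.3 and 209 CPM, a difference of -2.63 (SE 0.586). In control brain Cd72 was close together in the clusters and Dab2 was higher in Micro_2, on 28 against 6 UMIs, while in each MCAO library both were lower in Micro_2. Cd14, the lipopolysaccharide coreceptor gene, was at 826, 1416, 448 and 284 CPM against 939, 6193, 1184 and 330 CPM, with a difference of -1.24 (SE 0.258) that was nearly absent at 72 h. Glrx, Wdcp, B930036N10Rik, Eif3l and Trip12 were the remaining ones, and Trip12, with 0 UMIs in control Micro_3, has a fitted value that is no bound. The 3 genes with a higher change in Micro_2 were Fosb (1.02, SE 0.256), Tmx4 (1.08, SE 0.266) and the noncoding transcript Gm26532 (1.50, SE 0.348).

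With the term for kind of library in the fit, 23 genes were called against Micro_3, all with a lower change in Micro_2. As in the fit of Micro_2 alone, the MCAO estimate then sets 24 h replicate 1 against control. Of the 23, 10 were also called without the term. The differences of Fosb, Tmx4 and Gm26532 then became 0.57, 0.61 and 0.67 with adjusted p of 0.657, 0.596 and 0.76 by edgeR. Eif3l no longer passed either (adjusted p = 0.0789 by edgeR), at a difference of -1.31 (SE 0.364) with the term and -1.52 (SE 0.368) without. Called with the term only were 13 genes, among them Lpl (-3.34), the proteoglycan gene Sdc4 (-3.11), the lipid droplet gene Plin2 (-1.65), Gpr84 (-1.50), the pyruvate kinase gene Pkm (-1.22) and the ferritin gene Fth1 (-1.16). Lpl had the lower change in 2 of 3 MCAO libraries, since at 72 h its log2 change from control was 3.21 in Micro_2 and 3.05 in Micro_3. No homeostatic gene was called in either fit.

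**Figure D5:**
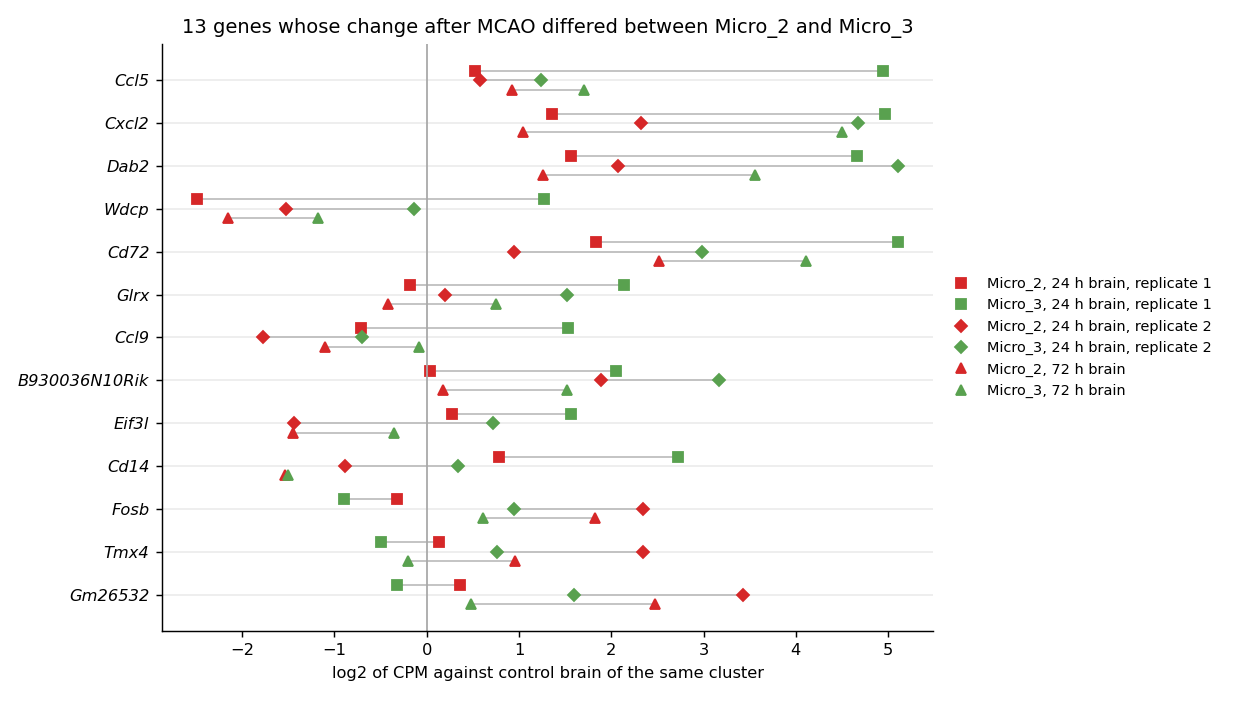
Log2 of CPM in each MCAO brain library against control brain of the same cluster, for 13 of the 14 genes called between Micro_2 (red) and Micro_3 (green), with a square for 24 h replicate 1, a diamond for 24 h replicate 2 and a triangle for 72 h. Grey lines join the 2 clusters of a library, and for Cxcl2, Dab2 and Cd72 all 3 MCAO libraries lie further right in Micro_3 than in Micro_2.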

How the data were processed

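The deposited counts are UMIs per gene and cell barcode, made by the authors with Cell Ranger 6.0 per the labels on build mm10, and are not normalized. Cell clusters were taken from the authors' deposited annotation. For it the authors filtered cells by genes and mitochondrial share, removed doublets, aligned the libraries with Harmony and clustered all tissues together in Seurat. Annotated barcodes were joined to their library, 30406 genes common to both gene lists were matched by Ensembl identifier, and UMIs were summed per library and cluster. No column of the files was left unmapped (0). Libraries hold 6591898 to 20754181 UMIs, and exact (Clopper-Pearson) 95% intervals cover counting error only, as UMIs do not measure how cells were sampled.

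Sums were tested with edgeR 4.0.16 in R 4.3.3, by its robust quasi-likelihood functions after filterByExpr and TMM scaling, two-sided. DESeq2 1.42.0 was the other tool. A gene was called when it was at least 2-fold apart and its p, adjusted by Benjamini-Hochberg, was under 0.05. Ratios between clusters used CPM with 0.5 counts added and a mean CPM of at least 20 in either cluster (for gene lists, in both clusters or libraries), and needed no test. Motifs were searched in the promoter windows of RefSeq, and positions are from GENCODE M21. Python 3.11.15 ran the rest, with pandas 2.3.3, numpy 2.4.6, matplotlib 3.10.9 and scipy 1.17.1. The count tests and the ratios between clusters were tested on simulated data with known answers.

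The members and gene lists were chosen with earlier results of these data known. Named genes are members of the lists (those with the highest level or the largest change), the 10 highest and the 10 lowest by mean ratio among those of 1 sign in all 4 brain libraries, and up to 10 called genes in each direction of each test. Genes named outside this rule (members of counts of 5 or fewer and of the 22 genes at least 2-fold lower than in Micro_3) were chosen after their values were seen. Of the list genes, 2 are not in the common gene list. The term for kind of library, the libraries of 1 gene list alone, added counts scaled to each sum, the CPM minimum in both clusters or libraries and the ratios between libraries of the same kind were chosen after seeing the data. The other alternatives were scaling by library size, DESeq2, other CPM minimums, no filterByExpr, each library left out, meningeal libraries added, cells thinned to 1000 or 500 UMIs and other denominators. Doublet removal and clustering were not repeated. Some genes that the rule names are not reported here.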

Additional observations from a re-analysis of the deposited data

Results flagged for a closer look

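A difference between the change after MCAO in Micro_2 and that in a neighbour cluster flagged 15 genes, each by the interaction of cluster and MCAO in edgeR's quasi-likelihood test with Benjamini-Hochberg adjustment. All values are the log2 change in Micro_2 minus that in the other cluster. Against Micro_1 the gene was Stmn1 with -1.66. Against Micro_3 the chemokine genes Ccl5, Cxcl2 and Ccl9 had -3.30, -3.20 and -1.71. The endocytic adaptor gene Dab2 had -3.07, the lectin gene Cd72 -2.63, the glutaredoxin gene Glrx -1.89 and the coreceptor gene Cd14 -1.24. Wdcp had -2.84, B930036N10Rik -1.62 and the translation factor subunit gene Eif3l -1.52. Trip12 had -7.08, with 0 UMIs in Micro_3 of control brain, so that this value is no bound. A higher change in Micro_2 flagged Fosb with 1.02, Tmx4 with 1.08 and Gm26532 with 1.50. Of the 14 genes against Micro_3, 10 were also called with a term for kind of library, and the 3 with a higher change were not.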

How the results depend on the processing

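No paired analysis of conditions was possible because the labels do not pair libraries of different conditions. Tests between clusters had each library as a block. The count for MCAO against control (0) was 2 with DESeq2, 8 without a filter on low counts, 1 in cells thinned to 1000 UMIs, 9 with the term for kind of library and 0 to 3662 when each MCAO library was left out, with 3662 reached without 24 h replicate 1, where MCAO and kind of library coincide. With library size alone the count stayed 0, while the median log2 change of all genes moved from 0.03 to 0.27. The counts for 24 h against control and for 72 h against 24 h (0 each) were 1 and 1 with DESeq2. The count against Micro_1 (1) was 0 with DESeq2, 0 without the filter, 0 with the term for kind of library and 0 to 1 with each library left out. That against Micro_3 (14) was 1 with DESeq2, 7 without the filter, 23 with the term and 9 to 37 with each library left out. Genes at least 2-fold apart from Micro_1 in all libraries (3) numbered 6 at a mean CPM of 5, 1 with the pia libraries added, 12 and 67 in the libraries of the longer and of the shorter gene list alone, and 4 to 7 with each library left out. Those apart from Micro_3 (27) numbered 16 at a mean CPM of 50, 50 at 5, 13 with the mean CPM of 20 required in both clusters, 8 with the pia libraries, 194 in the libraries of the shorter gene list alone and 27 to 76 with each library left out. As a share of all annotated cells, Micro_2 was 31.4%, 24.4%, 23.5% and 6.70% in the brain, 1.6% and 1.56% in the pia and 0.640% and 0.487% in the dura (control before 24 h). Among annotated cells with at least 1000 UMIs it was 32.3%, 25.9%, 16.0% and 3.90%, 1.76% and 1.74%, and 0.705% and 0.764%. With cells thinned to 1000 UMIs, the median share of the AP-1, Egr and Nr4a genes was 4.9% in Micro_2 of control and of 72 h brain, and in Micro_1 3.9% and 3.2% in 24 h replicates 1 and 2, 4% in control pia and 3.8% in 24 h pia. At 500 UMIs it was 3.6% in Micro_1 of 24 h replicate 1. In every brain library Micro_2 stayed above Micro_1 in these shares. The log2 change of Enpp2 without the term turned to 0.19 with library size alone and 0.40 in thinned cells. With each MCAO library left out it ran from -0.50 to 0.45, and that of Ttr from -0.83 to 0.22, both above 0 without 24 h replicate 1 only. The cause was not tested. Of the values of single genes and lists under the alternatives, 468 kept their direction and side of the threshold, 39 passed it and 43 no longer passed it. Another 4 reversed direction and 4 moved with no test. Of the counts of genes and the shares under the alternatives, 54 moved and 57 did not. The 72 h library, with 405 Micro_2 cells, and the share of cells over 1000 UMIs in 24 h replicate 2 (36.6%) and at 72 h (47.7%) limit what low genes can show there.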
